A study of Rattus norvegicus with 12 samples.

Results

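The AMPA and kainate receptor subunits are the 9 genes Gria1 to Gria4 and Grik1 to Grik5, which encode the pore-forming subunits of these glutamate receptors. They were chosen by name: every probe on the array that is not a control and carries the name of a member was taken, whatever its values. This gave 9 of the 35581 genes named on the array and 11 of its 41012 probes, with 6 probes for the 4 AMPA subunits and 5 for the 5 kainate subunits. Gria2 and Gria4 had a pair of probes each.

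AMPA receptors carry most fast excitatory transmission in the brain, and in the striatum they sit on projection neurons and interneurons at the synapses of cortical and thalamic axons. The subunit encoded by Gria2, once its RNA has been edited, makes the channel nearly impermeable to calcium, so the subunit mix shapes what the receptor lets through. Kainate receptors act on both sides of the synapse, where they carry slower currents and adjust the release of glutamate and GABA.

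Each of 12 male rats gave striatal RNA for 1 single-colour Agilent array, with 3 rats in each of 4 groups. All were lesioned on 1 side with 6-OHDA (9 µg), which destroys dopamine neurons, so every comparison is within lesioned animals. The 6-OHDA group had the lesion alone. HFS rats had high-frequency stimulation of the subthalamic nucleus (STN) over 5 days, at 130 Hz, 60 µA and a pulse width of 80 µs. DOPA rats had L-DOPA at 25 mg/kg together with benserazide at 12.5 mg/kg, in 2 daily injections over 19 days, and DOPA/HFS rats had the drugs and the stimulation. Electrodes in the STN are described for HFS and DOPA/HFS rats alone among these groups, so implantation and stimulation cannot be told apart. The tissue was a punch pooled over sections of 1 animal, a mixture of all its cell types.

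The striatal label was checked against markers of projection neurons. All 10 genes of that list had a probe on the array, and 9 of them entered a summed level, with the probe of Penk the brightest. The log2 of this sum lay between 17.65 and 18.10 on the 12 arrays, so the markers were bright on every array, among them Drd1 at 10.27 to 10.98.

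Of the 11 member probes, 10 (8 genes) were well above background on all 12 arrays and were tested. The probe of Grik3 did not pass the filter on dim probes and is described without a test. Over all spots, those well above background made up 50.5% to 63.2% of an array. No member spot was saturated, and 1 was left out as an outlier, that of Grik3 on DOPA/HFS replicate 3. That array stood apart, with 4175 spots marked as outliers against 2 to 25 on each other array, and no member was called without it either. All signals below are log2 values after quantile normalization, listed in the order of replicates 1 to 3. Levels of different probes are not comparable.

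Replicates with the same number shared a slide, and each group had its own place on the slide, so place on the slide and group cannot be told apart. Differences were estimated with limma over the 24239 probes that passed the filter. The call required an adjusted p under 0.1 together with a change of more than 1.2-fold upwards or to less than 0.8. The p-values measure the spread between these rats, 3 per group, and the number of arrays limits the precision. In an exact permutation test of 3 arrays against 3, the smallest p is 0.1.

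No AMPA or kainate subunit was called in any of the 8 comparisons. Stimulation alone was set against the untreated lesion to show how these transcripts differed after STN-HFS. In HFS against 6-OHDA, 7 of the 10 tested member probes had a higher mean and 3 a lower one, with a median log2 difference of 0.14 against 0.02 over all tested probes. The values ran from -0.34 for Grik2 to 0.77 for Gria1. The median was 0.05 without 6-OHDA replicate 2, 0.21 and 0.24 without 6-OHDA replicates 1 and 3, and 0.28 without HFS replicate 1, and 4 of the 10 signs changed in some setting. With limma, 0 of 10 members were called (0% of all tested probes were), and 0 of 10 had an unadjusted p under 0.05 (2.23% of all tested probes did). Gria1 reached that level in 4 of 21 other settings. For 0 of the 10 did the arrays of both groups separate without overlap, against 4.96% of all probes with values. A difference in a punch could come from fewer cells of a type or from less RNA per cell, and these cannot be told apart.

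L-DOPA alone went with small differences in these subunits. In DOPA against 6-OHDA the median absolute difference of the 10 member probes was 0.04, against 0.13 over all tested probes, and the values lay between -0.17 (Grik1) and 0.24 (Grik4). The 95% intervals of all 10 lay within a 2-fold change in either direction. When single arrays were left out, Grik1 ran from -0.49 to 0.1, Gria1 from -0.25 to 0.25 and Grik4 from 0.05 to 0.4. The sign of 8 of the 10 differences changed in some setting, 2 of them under another scaling of the arrays. No member passed the limma test, where 0.00413% of all tested probes did. None had an unadjusted p under 0.05, a level reached by 2.48% of all probes. The arrays overlapped for all 10 members, whereas 6.09% of all probes with values had separate groups.

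The combined treatment was compared with the untreated lesion and with each treatment alone. For DOPA/HFS against 6-OHDA, 5 member probes had a higher mean and 5 a lower one, from -0.23 (Gria3) to 0.27 (Grik1). Leaving out single arrays moved Gria3 to between -0.32 and -0.14 and Grik1 to between -0.04 and 0.61. Here limma called 0 of 10 members and 0% of all tested probes. At an unadjusted p under 0.05 there were 0 members and 2.68% of all probes, and groups without overlap occurred for 0 members and for 4.11% of all probes. The signs are not firm, since 7 of the 10 changed in some setting, 4 of them under another scaling.

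DOPA/HFS was set against DOPA to show how stimulated and unstimulated animals on L-DOPA differed, and again no member was called. The member differences ran from -0.21 (Gria3) to 0.45 (Grik1), 5 up and 5 down, and 5 of the signs changed in some setting, 3 of them under another scaling. With single arrays left out, Gria3 lay between -0.3 and -0.1 and Grik1 between 0.19 and 0.78. The limma call was made for 0 of 10 members and 0% of all tested probes, and an unadjusted p under 0.05 for 0 members and 3.81% of all. Groups without overlap were found for 1 member probe, A_44_P289630 of Gria2, which is 1 of 10 where the share over all probes was 9.35%.

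With L-DOPA added to stimulation the mean was lower for 9 of the 10 member probes, with a median difference of -0.11 against -0.02 over all tested probes. Grik2 was the exception at 0.27. The direction is not firm, since 6 of the 9 lower probes changed sign in some setting. The median became 0 without HFS replicate 3, -0.02 without DOPA/HFS replicate 3, -0.23 and -0.18 without HFS and DOPA/HFS replicate 1, -0.22 in the deposited table and -0.27 with outlier spots kept. None of the 10 was called by limma in DOPA/HFS against HFS (0% of all probes). Gria1 alone had an unadjusted p under 0.05, so 1 of 10 members reached a level that 2.45% of all probes reached. The groups overlapped for all 10, against 6.34% of all probes with separate groups. HFS is the shared reference of this comparison and a side of the first one, so a low or high HFS array enters both.

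The main effects compare 6 arrays with 6. The L-DOPA main effect was negative for 8 of 10 member probes and positive for 2, Grik2 at 0.15 and Grik4 at 0.11, and 5 of the 10 signs changed in some setting, that of Grik4 under another scaling. No member was called by limma (0.00825% of all probes) or had an unadjusted p under 0.05 (2.66% of all). For no member did the 6 arrays with L-DOPA lie apart from the 6 without it, against 0.124% of all probes with values. The HFS main effect was positive for 6 and negative for 4, and 2 signs changed in some setting, again with Grik4 under another scaling. It called 0 members (limma, 0% of all probes), and 0 had an unadjusted p under 0.05 (4.2% of all). The 6 stimulated arrays lay apart from the 6 others for 0 members and for 0.146% of all probes with values. In the interaction, which asks whether stimulation acted differently with L-DOPA, 2 probes were positive and 8 negative, with 6 signs changing in some setting and 1 of them under another scaling. Limma called 0 of them (0% of all probes) and gave 0 an unadjusted p under 0.05 (2% of all).

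Across the 7 comparisons between groups, 65 of the 70 member intervals at 95% lay within a 2-fold change. Larger changes are thus bounded for most subunits, while smaller ones could not be resolved with 3 rats per group. The plot of differences with their intervals shows the widest ones for Gria1 and Grik1.

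**Figure D1:**
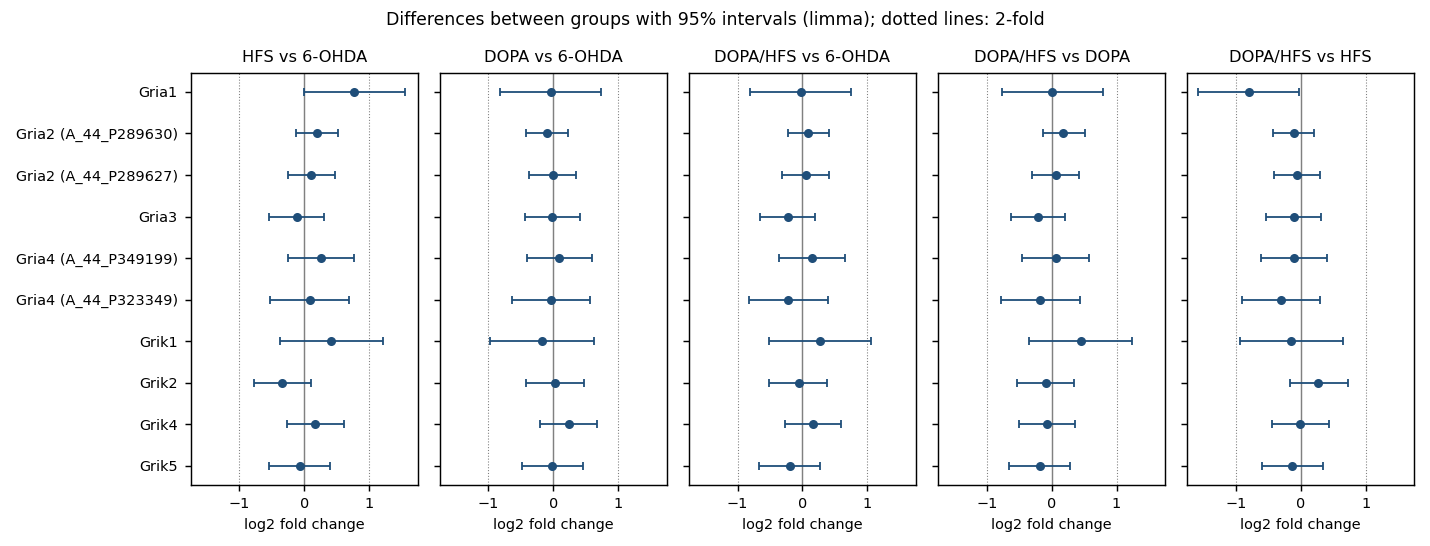
Log2 fold change (x axis) of the 10 tested probes of AMPA and kainate subunits in 5 comparisons, with limma 95% intervals as bars and dotted lines at 2-fold. The interval of Gria1 reaches from -0.01 to 1.55 in HFS against 6-OHDA and from -1.58 to -0.02 in DOPA/HFS against HFS.

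Gria1 encodes the AMPA subunit best known for its delivery to synapses during potentiation. Its log2 signals were 9.43, 9.14 and 10.14 in 6-OHDA and 9.54, 10.34 and 11.14 in HFS. They were 9.52, 9.65 and 9.42 in DOPA and 9.65, 9.62 and 9.34 in DOPA/HFS. The HFS replicates 2 and 3 were the highest of all 12 arrays, 6-OHDA replicate 3 came next, and HFS replicate 1 lay within the range of the L-DOPA-treated arrays, so HFS overlapped with every other group.

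The mean of Gria1 was 10.34 ± 0.80 in HFS (SD, n = 3), followed by 9.57 ± 0.51 in 6-OHDA, 9.54 ± 0.17 in DOPA/HFS and 9.53 ± 0.11 in DOPA. The last 3 means do not differ beyond their spread. HFS exceeded 6-OHDA by 0.77 (SE 0.35), a fold of 1.71, with an interval from -0.01 to 1.55 (limma, unadjusted p = 0.0526, adjusted p = 0.999; exact two-sided permutation test, p = 0.2). DOPA/HFS was below HFS by a log2 difference of -0.80 (SE 0.35), a fold of 0.574, with an interval from -1.58 to -0.02 (limma, unadjusted p = 0.0451, adjusted p = 1; exact two-sided permutation test, p = 0.3). Neither difference passed the test, and the interaction of -0.76 (SE 0.50) had an unadjusted limma p of 0.156.

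The size of both Gria1 differences depended on single arrays. Without HFS replicate 3 they were 0.37 and -0.40, with unadjusted limma p-values of 0.254 and 0.218. Without HFS replicate 1 they were 1.17 and -1.2, with 0.00319 and 0.0027. Within slides 1, 2 and 3, HFS minus 6-OHDA was 0.11, 1.2 and 1, positive on each slide, while DOPA/HFS minus HFS was 0.12, -0.72 and -1.8, positive on the first. The sign of each mean difference was the same in all 21 settings tried. The unadjusted limma p was under 0.05 in 4 of these settings for HFS against 6-OHDA and in 10 for DOPA/HFS against HFS.

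The Gria1 probe was printed in 10 spots on each array, and their SD within an array was 0.03 to 0.09, with a median of 0.05. On HFS replicate 3 the spots ran from 11 to 11.25 and on HFS replicate 1 from 9.41 to 9.64. The arrays of the HFS group thus differ by more than the spots within an array do, as the plot of spot ranges shows. Spots of an array share its RNA and labelling, so their spread holds no error from those steps.

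**Figure D2:**
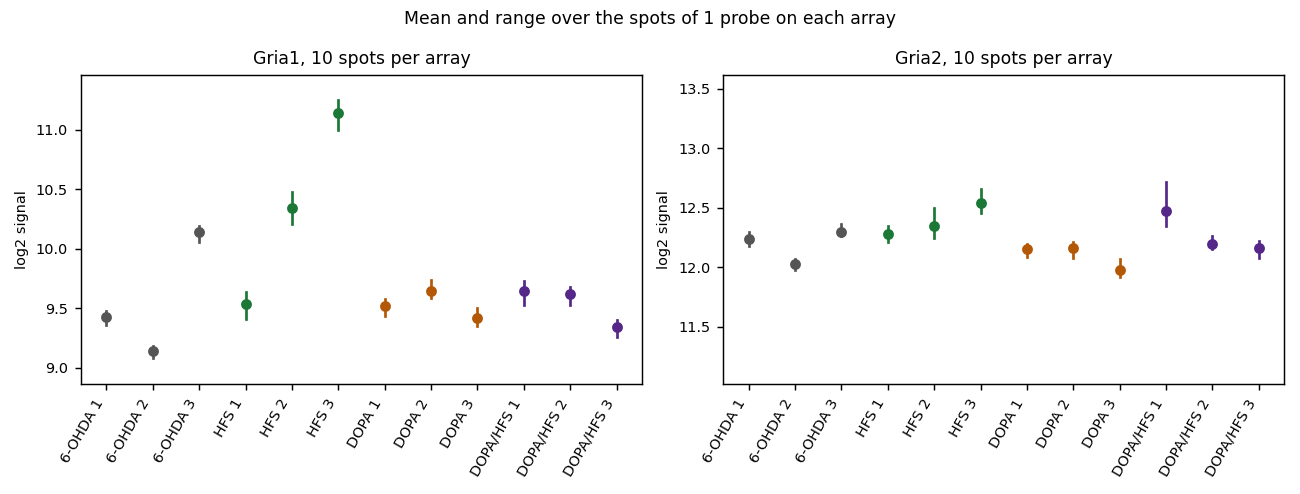
Log2 signal (y axis) of the 10-spot probes of Gria1 and Gria2 on each of the 12 arrays, with the mean over spots as a point and their lowest to highest value as a line. For Gria1 the ranges on HFS replicates 1, 2 and 3 do not touch each other.

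Markers of other cells moved with Gria1 on some arrays. Among oligodendrocyte markers, Mobp read 13.18, 13.01 and 14.32 in 6-OHDA and 13.48, 14.34 and 14.57 in HFS, and 13.43 to 13.90 on the other 6 arrays. Its 3 highest arrays were also the 3 with the highest Gria1, and the same held for Cnp, at 14.58 on 6-OHDA replicate 3 and 14.45 on HFS replicates 2 and 3. The 4 highest arrays of Mbp, at 14.35 to 14.49, were the 4 highest of Gria2 probe A_44_P289630, and Mbp, Mobp and Cnp were lowest on 6-OHDA replicate 2, as Gria1, Grik1, Grik4 and A_44_P349199 of Gria4 were. Mog and Mag did not follow the order of Gria1, and Mog was highest on 6-OHDA replicate 2 (14.31), the array with the lowest Gria1. Choroid plexus genes (8 of 9 on the array, 6 used, the probe of Ttr the brightest) had a summed log2 level of 8.03 to 8.62 in 6-OHDA and of 16.44, 12.07 and 15.45 in HFS. It was 7.84, 10.54 and 14.01 in DOPA and 8.11 to 9.84 in DOPA/HFS. This list was highest on HFS replicate 1, the HFS array with the lowest Gria1. The part of either cell type in the member values was not tested.

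Gria2, the subunit that governs calcium permeability, varied much less. Probe A_44_P289630, also printed in 10 spots, read 12.24, 12.03 and 12.30 in 6-OHDA, 12.28, 12.35 and 12.54 in HFS, 12.15, 12.16 and 11.98 in DOPA, and 12.47, 12.20 and 12.16 in DOPA/HFS. All 3 DOPA/HFS arrays lay above the highest DOPA array, the lowest by less than the rounding of these values. Its means were ordered HFS, DOPA/HFS, 6-OHDA and DOPA, over a span of 0.30 with a pooled SD of 0.14, and no neighbours in that order differed beyond their spread.

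The HFS main effect on this Gria2 probe was 0.19 (SE 0.10), with an interval from -0.04 to 0.42 (limma, unadjusted p = 0.0901, adjusted p = 0.931). An exact two-sided permutation of arrays within the L-DOPA levels gave p = 0.02, where 0.005 is the smallest it allows. That p is not adjusted for the 70 member values, so no change is claimed. DOPA/HFS exceeded DOPA by 0.18 (SE 0.15), with an exact two-sided permutation p of 0.1. Within slides 1, 2 and 3, DOPA/HFS minus DOPA was 0.32, 0.05 and 0.19. HFS minus 6-OHDA was 0.03, 0.33 and 0.24, so both were positive on each slide.

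The other Gria2 probe, A_44_P289627, read between 11.42 and 11.91 on the 12 arrays. Its group means had the same order, over a span of 0.12 that is below its pooled SD of 0.17. The sign of the difference was the same for both probes in 7 of 7 comparisons between groups, which share arrays, yet across the 12 arrays their signals had a Pearson r of 0.06. The HFS main effect of this probe was 0.08, with an interval from -0.17 to 0.34. Within slides 1, 2 and 3 its DOPA/HFS minus DOPA was -0.23, 0.41 and 0, and its HFS minus 6-OHDA was 0.01, 0.07 and 0.24.

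Gria3 encodes a subunit that often pairs with that of Gria2. It ranged from 8.75 on DOPA/HFS replicate 3 to 9.43 on HFS replicate 3. Means ran from 9.16 ± 0.15 in 6-OHDA through DOPA and HFS to 8.93 ± 0.18 in DOPA/HFS (SD, n = 3). This span of 0.23 equals the pooled SD. DOPA/HFS minus 6-OHDA was -0.23 (SE 0.19), with an interval from -0.65 to 0.20.

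Gria4 encodes a subunit with fast kinetics, typical of interneurons in much of the forebrain. Probe A_44_P349199 lay between 7.71 and 8.71 and probe A_44_P323349 between 7.62 and 8.59. HFS had the highest mean for both, but most of the 7 comparisons between groups had opposite signs for the 2 probes. Their Pearson r over 12 arrays was 0.36. The L-DOPA main effect was negative for both, though for A_44_P349199 (fold 0.997) by less than the rounding. Neither span of group means, 0.26 and 0.30, exceeded the pooled SD of 0.29 and 0.36. No direction can be given for Gria4.

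Grik1 and Grik2 encode kainate subunits that form channels on their own. Grik1 read 6.30, 5.6 and 6.77 in 6-OHDA, 6.30, 6.57 and 7.04 in HFS, 6.03, 5.71 and 6.40 in DOPA, and 7.01, 6.65 and 5.82 in DOPA/HFS. The stimulated groups had the higher means, 6.64 ± 0.37 in HFS and 6.49 ± 0.61 in DOPA/HFS, against 6.22 ± 0.59 in 6-OHDA and 6.05 ± 0.35 in DOPA (SD, n = 3), but all 4 groups overlapped and no neighbours in this order differed beyond their spread. The HFS main effect was 0.43 (SE 0.25), with an interval from -0.13 to 0.99 (limma, unadjusted p = 0.118; exact two-sided permutation test, p = 0.14). Leaving out single arrays moved this effect to between 0.28 and 0.6. Its unadjusted limma p was under 0.05 in 2 of 20 settings. DOPA/HFS minus DOPA was 0.98 and 0.94 on slides 1 and 2 and -0.58 on slide 3.

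Grik2 had its lowest mean in HFS. Its signals were 10.27, 10.76 and 10.42 in 6-OHDA, 10.39, 9.79 and 10.26 in HFS, 10.46, 10.75 and 10.33 in DOPA, and 10.32, 10.63 and 10.31 in DOPA/HFS. Only HFS replicate 2 was below 10 and most of the difference came from slide 2. HFS minus 6-OHDA was -0.34 (SE 0.20), with an interval from -0.78 to 0.11 (limma, unadjusted p = 0.124; exact two-sided permutation test, p = 0.2), and within slides it was 0.12, -0.97 and -0.16. The other 3 group means, 10.42 to 10.51, do not differ beyond their spread.

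Grik3, whose subunit can also form channels alone, was near the limit of detection. Its probe was well above background only on 6-OHDA replicate 2, at 8.21, and on HFS replicate 3, at 4.44. The other arrays with a value read 2.4 to 4.2, and DOPA/HFS replicate 3 had none. The 6-OHDA mean of 5.36 ± 2.48 (SD, n = 3) rests on replicate 2, and no fold is given, since every group held arrays that were not well above background.

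Grik4 and Grik5 encode the high-affinity kainate subunits, which need a partner to form a channel. Grik4 ranged from 8.30 to 9.08 and Grik5 from 11.26 to 12.00. For Grik4 the means ran from 8.92 in DOPA to 8.68 in 6-OHDA, and for Grik5 from 11.72 in 6-OHDA to 11.52 in DOPA/HFS. Neither span, 0.24 and 0.20, exceeded the pooled SD of 0.24 and 0.26. Between groups, the largest difference of Grik4 was 0.24 (SE 0.20) in DOPA against 6-OHDA, and leaving out single arrays moved it to between 0.05 and 0.40. On DOPA/HFS, Grik5 had its highest value of all arrays on replicate 1 and its 2 lowest on replicates 2 and 3, 11.29 and 11.26.

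Some markers of microglia and cortex were low on the arrays with low Grik4. The 5 microglia genes used, of 6 listed, had a mean log2 signal of 9.02 on 6-OHDA replicate 2, where Grik4 was lowest too, and of 9.69 to 10.37 on the others. Itgam carried most of this, at 3.58 there and 6.36 to 8.95 elsewhere, while P2ry12 was near its highest there at 11.36. The log2 of their summed signal, to which the probe of Aif1 gave the most, lay between 13.30 and 13.62. For the 2 cortex genes used, of 7 listed, with the probe of Neurod2 the brighter, the summed log2 level was 9.51, 7.95 and 8.60 in 6-OHDA, 7.41, 9.70 and 10.12 in HFS, 8.33, 8.54 and 10.04 in DOPA, and 8.68 to 8.79 in DOPA/HFS. The 2 arrays with the lowest cortex level, HFS replicate 1 and 6-OHDA replicate 2, were also the 2 with the lowest Grik4 (8.58 and 8.30), while Grik2 was highest on 6-OHDA replicate 2. Their part in the member values was not tested.

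**Figure D3:**
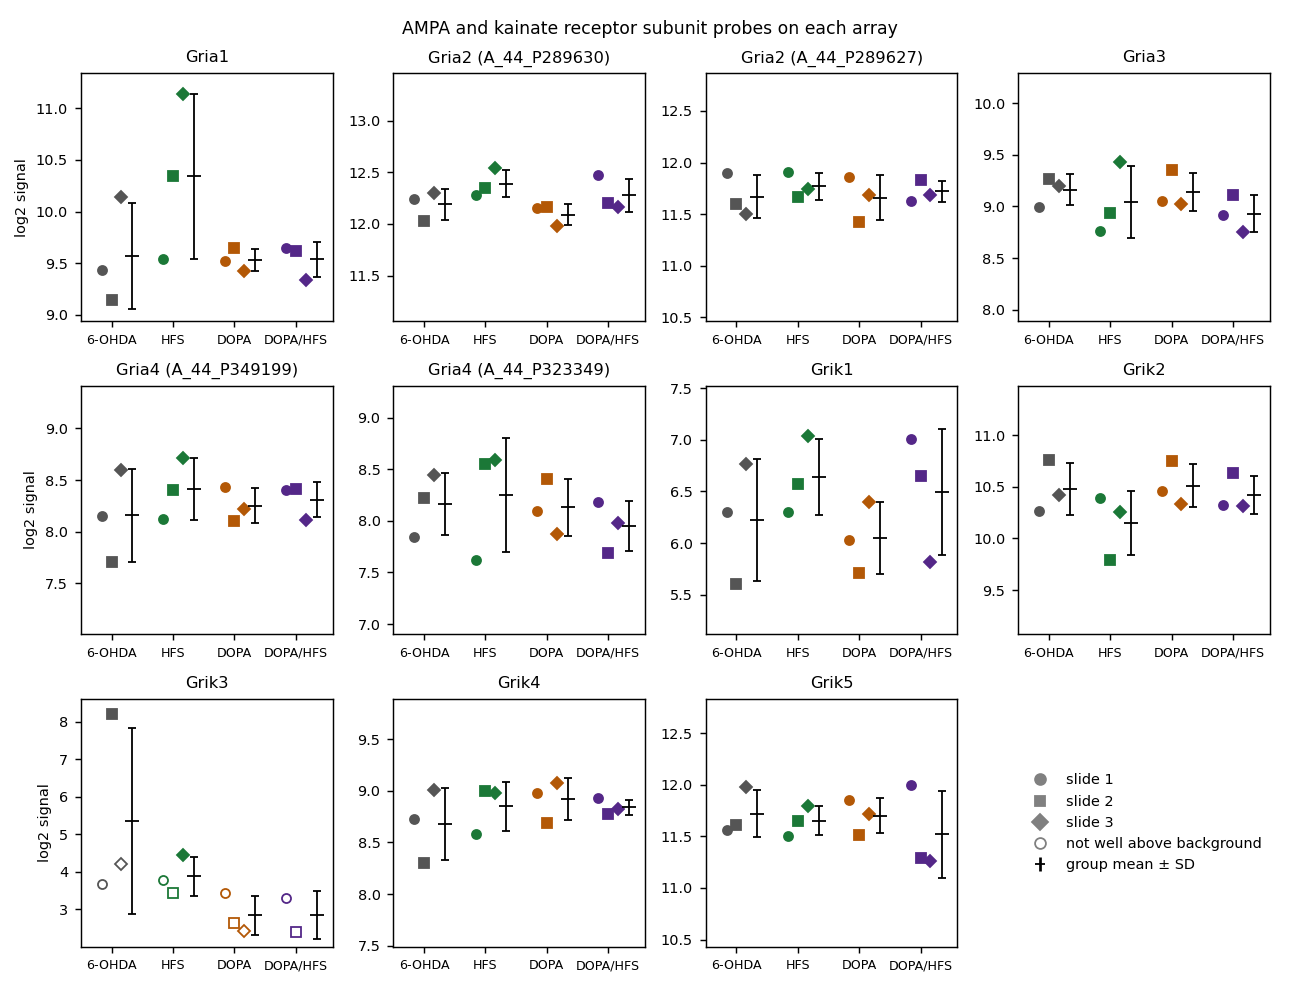
Log2 signal (y axis) of every member probe on each of the 12 arrays, by group, with symbols for the slide, open symbols where the spot was not well above background, and group mean ± SD beside them. Gria1 in HFS spans 9.54 to 11.14, and A_44_P289630 is lower on all 3 DOPA arrays than on all 3 DOPA/HFS arrays.

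A pair of arrays recurred at the ends of the ranges. HFS replicate 3 had the highest signal of all arrays for Gria1 (11.14), A_44_P289630 of Gria2 (12.54), Gria3 (9.43), both Gria4 probes (8.71 and 8.59) and Grik1 (7.04). 6-OHDA replicate 2 had the lowest for Gria1 (9.14), A_44_P349199 of Gria4 (7.71), Grik1 (5.6) and Grik4 (8.30), and the highest for Grik2 (10.76) and Grik3 (8.21). Some cell markers put these arrays at the ends too. HFS replicate 3 had the highest summed cortex level (10.12), which within HFS followed the order of Gria1. Outside HFS it did not. DOPA replicate 3 had a cortex level of 10.04 with Gria1 at 9.42, and 6-OHDA replicate 3 had 8.60 with Gria1 at 10.14. 6-OHDA replicate 2 had the lowest summed level of projection neurons (17.65) and the lowest mean log2 of endothelium (6.87). With the measures exchanged it was lowest for neither list. The mean log2 of projection neurons was 13.68 there and 13.65 on DOPA/HFS replicate 2. The summed endothelium level was 12.78 there and 12.49 on HFS replicate 3. Whether cell types had a part in this was not tested.

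Over the 12 arrays, with 1 probe per gene, the 28 pairs among the 8 tested genes had a Pearson r from -0.58 to 0.82, with a median of 0.41. It was highest for Gria4 with Grik1 (0.82) and Gria4 with Grik4 (0.81), and above 0.5 for 9 pairs. The probes used were A_44_P349199 for Gria4 and A_44_P289630 for Gria2. Their r with the other probe of the gene was only 0.36 and 0.06. Pairs with Gria4 or Gria2 therefore hold for the probe used, and no value is given for the other. The 7 negative pairs include 6 with Grik2, down to -0.58 with Grik4. With slide means removed the range was -0.56 to 0.87 and the median 0.42. These are descriptions over 12 arrays that share 3 slides and 4 treatments.

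The genes whose signal was most like that of a member were sought among 5584 named genes with a value on all 12 arrays, and the 3 with the highest Pearson r were kept, so a high r is a result of the choice. For Gria1 they were Ipmk, an inositol phosphate kinase (r = 0.929, Spearman rho = 0.818), the endoplasmic reticulum chaperone Hsp90b1 (0.921 and 0.909) and the fatty acid desaturase Fads1 (0.916 and 0.839). With slide means removed these r were 0.946, 0.912 and 0.906. All 3 were highest on HFS replicate 3, as Gria1 was, with Hsp90b1 at 14.33 there and at 13.62 on 6-OHDA replicate 2.

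For Gria2 the nearest included Trmt2a (r = 0.941) and Zfp219 (0.902), and for Gria4 Mgll, which breaks down an endocannabinoid (0.948), Sugp1 (0.936) and Exoc8 (0.930). Gria3 had the least alike neighbours of the AMPA subunits, Tlr3 (0.838), Thrap3 (0.796) and Gpr85 (0.796). Among kainate subunits, Grik1 was nearest to Hp1bp3 (0.942), Grpel1 (0.939) and the elongation factor Eef1a1 (0.929). Grik2 was nearest to the deubiquitinase Usp14 (0.854), Lgr4 (0.816) and Twf1 (0.813), Grik4 to Wsb2 (0.933), Zdhhc3 (0.933) and the kinase Akt1 (0.929), and Grik5 to Cap2 (0.921), Ide (0.907) and Gatad2b (0.888). Over the neighbours named for these 8 genes, Spearman rho ran from 0.734 to 0.944, and r with slide means removed from 0.722 to 0.955.

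The partners of these receptors were followed through 5 lists of 35 genes, of which 30 had a probe and 29 (35 probes) were tested. None was called by limma in any of the 8 comparisons. At an unadjusted p under 0.05 there was 1 probe in DOPA against 6-OHDA, 1 in DOPA/HFS against DOPA and 0 in each of the other 6, so 1 of 35 against 2.48% and 3.81% of all tested probes. Groups were separate from 6-OHDA for 1 of the 35 with HFS and 3 of the 35 with DOPA. DOPA/HFS could be compared for the 32 probes with a value on all its arrays, and was separate from 6-OHDA for 2, from DOPA for 2 and from HFS for 0. The shares over all probes were 4.96%, 6.09%, 4.11%, 9.35% and 6.34% in that order. The median difference over all partner probes against 6-OHDA was 0.07 for HFS, 0.17 for DOPA and 0.07 for DOPA/HFS, where that over all tested probes was 0.02, 0 and 0.

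AMPA receptor auxiliary subunits steer the receptors to the membrane and slow their closing. Of 10 such genes 7 had a probe and 6 were tested, Cacng2, Cacng3, Cacng4, Cacng7, Cacng8 and Cnih2, while Cacng5 did not pass the filter. Cacng7 read 6.12, 5.70 and 6.08 in DOPA and 5.05, 5.53 and 5.66 in DOPA/HFS, so the groups did not overlap, though 6-OHDA at 5.37 to 5.91 spanned the gap. The difference of -0.55 (SE 0.23) had an interval from -1.07 to -0.03 (limma, unadjusted p = 0.0386, adjusted p = 1; exact two-sided permutation test, p = 0.1). Cacng2, the best known of them, read 9.74 to 10.68 and differed by 0.23 (SE 0.23) between HFS and 6-OHDA. The kainate receptor auxiliary subunits Neto1 and Neto2 had no probe under these names.

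Scaffold, trafficking and clustering proteins hold AMPA receptors at the synapse, and all 14 listed genes were tested, with 18 probes. Sdcbp, which encodes syntenin, read 15.16, 15.16 and 15.05 in 6-OHDA and 15.35, 15.67 and 15.35 in DOPA, without overlap. Its difference was 0.33 (SE 0.15), with an interval from 0.01 to 0.66 (limma, unadjusted p = 0.0451, adjusted p = 1; exact two-sided permutation test, p = 0.1). Probe A_43_P12718 of Grip1, whose protein binds the tails of AMPA subunits, was lower without overlap in DOPA (-0.38) and in DOPA/HFS (-0.35) than in 6-OHDA. There, replicate 2 read 9.74 and the others 8.99 and 8.94. The probe read 8.94 on its highest DOPA/HFS array too, so that gap is below the rounding of these values. With overlap, it was also lower in HFS (-0.41; limma, unadjusted p = 0.076, adjusted p = 0.999). The other Grip1 probe overlapped in all 3 comparisons and differed by 0.32 in HFS. Without overlap were also A_44_P305135 of Epb41l1 in DOPA/HFS against 6-OHDA (-0.28), where the other probe of the gene differed by 0.19, and Dlg2 in DOPA/HFS against DOPA (-0.14). Both Dlg4 probes, for the scaffold PSD-95, were highest on HFS replicate 3 (10.38 and 11.10), the array with the highest Gria1.

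Adarb1, the enzyme that edits Gria2 RNA, read 12.67 to 13.59 on the 12 arrays, and its differences from 6-OHDA were -0.20 in HFS, -0.04 with L-DOPA alone and -0.30 in DOPA/HFS (SE 0.21 each). The delta receptor gene Grid1 read 7.17 to 7.91, with -0.13, -0.09 and 0.01 in the same order (SE 0.24 each). Neither gene passed the test in any comparison. Whether the editing of Gria2 differed cannot be read from these probes.

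Glutamate transport genes, 6 with 8 probes, load glutamate into vesicles or clear it after release. Slc1a2, the main astrocyte transporter, read 11.22, 11.27 and 11.28 in 6-OHDA on probe A_44_P545654, below all 3 HFS arrays (11.42, 11.29 and 11.48) and all 3 DOPA arrays (11.50, 11.53 and 11.53). The differences were 0.14 and 0.27 (SE 0.14 each), and neither passed the test (exact two-sided permutation tests, p = 0.1). On DOPA/HFS arrays the probe read 11.72, 11.53 and 11.26, overlapping with 6-OHDA (0.25; exact two-sided permutation test, p = 0.3). Its other probe overlapped. Slc17a7, the vesicular transporter of cortical neurons, varied widely inside every group but DOPA/HFS, with 7.51, 4.35 and 6.00 in 6-OHDA, 4.62, 7.29 and 7.76 in HFS, 6.01, 5.65 and 7.75 in DOPA, and 6.60, 6.33 and 6.69 in DOPA/HFS. With Neurod2 it is 1 of the 2 cortex markers used.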

How the data were processed

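The authors deposited scanner files whose intensity values, made with Agilent Feature Extraction 9.1, are background-corrected and not normalized between arrays. The log2 values of the deposited table were quantile normalized by the authors. Each of its columns has a median of 7.21 and ranks equal to those of mean signal minus mean background (Spearman correlation of 1), and it served as an alternative. Of 45018 spots per array, 1639 controls and all outlier spots were left out. The rest were taken to log2, quantile normalized and averaged per probe. A probe entered the fit when it was well above background on a share of the arrays of 0.4 or more. The fit used lmFit and eBayes of limma 3.58.1 under R 4.3.3. Adjusted p-values (Benjamini-Hochberg) cover all fitted probes, and the fit was tested on simulated data.

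Members were found by the names in the files. Other genes were named through RefSeq GRCr8 where the accession matched (10735 of 41012 probes, 10 of the 11 member probes among them, while Grik5 kept the name in the file). Named are all members, the genes of 5 partner lists, the 3 genes most correlated with each member's brightest tested probe, and marker genes. The values of 3 genes under this rule are not reported here. Members and lists were chosen with earlier results of these data known. The alternatives were other scalings and background corrections, filters, call limits, outlier spots kept, 1 probe per gene, a replicate block, fits of only the groups compared, and leaving out each array. The RT-qPCR and behavioural measurements of the study were not analysed here.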

Additional observations from a re-analysis of the deposited data

How the results depend on the processing

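The count of member probes called was 0 in every comparison under every alternative, 188 values in all, and the median member difference moved by less than 0.18, its SD between arrays, in all 165 values, a margin larger than the median reported for any comparison. Of 80 pairs of member probe and comparison, 37 kept their sign in every setting and 43 changed it in some. The cause was not tested. With the deposited table the median of all probes was -0.11 in DOPA/HFS against 6-OHDA and against DOPA, against 0 in the values reported, and -0.12 against HFS, where the values reported gave -0.02.

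The counts over all probes kept within 1.5 times in 132 of 188 values and moved in 56. With fold limits and groups that do not overlap in place of the test, the counts against 6-OHDA were 751 for HFS, 908 for DOPA and 600 for DOPA/HFS, those of DOPA/HFS were 1359 against DOPA and 875 against HFS, and there were 23 for the L-DOPA main effect and 20 for the HFS main effect. With no filter on dim probes they were 4 for HFS, 0 for DOPA, 4 for DOPA/HFS against HFS and 1 for the L-DOPA main effect. A filter on all 3 arrays of a group gave 1 each in HFS, DOPA/HFS against HFS, the HFS main effect and the interaction. The DOPA count of 1 became 0 at an adjusted p under 0.05, 0 with a replicate block, 2 with outlier spots kept and 3 with only the groups compared. The L-DOPA main effect count of 2 became 1 at an adjusted p under 0.05, 1 with the block, 1 with 1 probe per gene and 4 with the deposited table. Leaving out each array in turn gave 0 to 2 for HFS, 0 to 15 for DOPA, 0 to 3 for DOPA/HFS, 0 to 4 for DOPA/HFS against HFS, 1 to 34 for the L-DOPA main effect, 0 to 1 for the HFS main effect and 0 to 2 for the interaction. The highest, 34 and 15, came without DOPA/HFS replicate 1. The cause of these moves was not tested.

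With the replicate number as a block, Gria1 had unadjusted limma p-values of 0.0492 in HFS against 6-OHDA and 0.0423 in DOPA/HFS against HFS, beside 0.0526 and 0.0451 as reported. In the same order, p was 0.118 and 0.0657 with only the groups compared, 0.0654 and 0.0569 with no filter on dim probes, and 0.0776 and 0.0318 with outlier spots kept. It was 0.0376 and 0.0321 with normexp background correction, and 0.0531 and 0.0171 with the deposited table. Same-number arrays of different groups correlated at a median of 0.11 over 18 pairs and other arrays at -0.05 over 36, and 5 of 12 arrays were most like one of their own number, so the numbers are not shown to pair the rats. Fits of only the groups compared could not give main effects or the interaction, and the overlap rule could not give the interaction. Groups of 3 limit every estimate, signal near background limits Grik3, most members rest on 1 probe with 1 spot, and probe signal does not separate splice forms, editing or cell types.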
